A study of Mus musculus with 6 samples.

Results

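The genes that decide whether a cell leaves G1 were described in 6 samples of sorted mouse leukemia cells: the D cyclins Ccnd1, Ccnd2 and Ccnd3, their kinases Cdk4 and Cdk6, and the CDK inhibitor genes Cdkn1a, Cdkn1b, Cdkn2a, Cdkn2c and Cdkn2d. These 10 genes were taken by name out of 22180 genes that the array names, with earlier results of these data known. Each was read by 1 probe set annotated to that gene alone. The 3 control samples came from mice with Mx1-Cre and Cbfb+/56M, a knock-in allele by which Cre can turn on Cbfb-MYH11, the fusion that the inversion of human acute myeloid leukemia creates. The 3 Chd7f/f samples came from mice with the same pair of alleles and, in addition, floxed Chd7, the gene of a chromatin remodelling ATPase, and the comparison asks what its loss does to the leukemic transcriptome. Mice of both genotypes were given pIpC, which induces the Mx1 promoter that drives Cre, and ENU, a mutagen that leaves different mutations in different animals. Spleens of end-stage mice were sorted for c-Kit, the receptor of stem cell factor, and the labels used here state no ages. The series' design text calls the samples of a genotype independent without saying how, so any p-value speaks only of the spread among these 6 samples.

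D cyclins are made in response to growth signals and activate CDK4 and CDK6, which phosphorylate the retinoblastoma protein and so release E2F factors for the genes of S phase. INK4 proteins, encoded by Cdkn2a, Cdkn2c and Cdkn2d among others, bind CDK4 and CDK6 alone, whereas the CIP/KIP proteins p21 and p27, encoded by Cdkn1a and Cdkn1b, act on CDK2 complexes and also help to assemble D cyclins with their kinases. In blood progenitors the 3 D cyclins overlap in function, and p18Ink4c, p21 and p27 are known for restraining stem and progenitor cell division.

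Promoter windows from RefSeq in build GRCm38.p6 were at hand for 8 of the 10 genes, 12 windows in all since some genes have more than 1 start. The 250 bases before the start are shown for Cdk4 and Cdk6, the kinases and the members furthest from their own mean on a single array, and for Cdkn1b, which was highest on the array where Cdk4 was lowest. Capitals mark the letters CACGTG, the E-box that MYC and related factors bind.
Cdk4 (chr10:127063285-127063534, plus strand): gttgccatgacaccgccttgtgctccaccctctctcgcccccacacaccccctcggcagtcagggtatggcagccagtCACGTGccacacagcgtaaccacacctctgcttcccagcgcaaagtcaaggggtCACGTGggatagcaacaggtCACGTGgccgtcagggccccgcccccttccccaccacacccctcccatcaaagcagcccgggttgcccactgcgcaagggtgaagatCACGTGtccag
Cdkn1b (chr6:134920151-134920400, plus strand): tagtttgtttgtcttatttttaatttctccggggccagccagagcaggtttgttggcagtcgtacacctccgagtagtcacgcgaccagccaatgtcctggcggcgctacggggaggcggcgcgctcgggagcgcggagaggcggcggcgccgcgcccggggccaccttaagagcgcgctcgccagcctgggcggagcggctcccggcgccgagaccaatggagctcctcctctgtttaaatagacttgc
Cdk6 (chr5:3343643-3343892, plus strand): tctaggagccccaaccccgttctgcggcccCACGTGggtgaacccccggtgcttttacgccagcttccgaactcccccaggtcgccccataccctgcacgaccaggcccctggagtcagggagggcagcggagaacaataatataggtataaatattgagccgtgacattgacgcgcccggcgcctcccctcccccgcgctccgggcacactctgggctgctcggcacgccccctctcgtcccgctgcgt
The Cdk4 window held 4 copies of CACGTG, which reads the same on both strands, the Cdk6 window held 1 and the Cdkn1b window 0. At least 1 copy was present in 6.02% of the 32851 windows of this length over all genes and their starts, and 7 windows, or 0.0213%, held as many as Cdk4 or more. The E2F letters TTTCCCGC, searched on both strands, were found in 1 of the members' windows, at a start of Cdkn2a, and in 0.895% of all windows. The E2F letters TTTGGCGC (0.417% of all windows) and the letters TTTGAA of the cell cycle homology region (16%), on both strands, were in none of the 12 windows of the members. A match is a description of letters, and the arrays did not measure binding.

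Levels are RMA values in log2 units, 1 array per sample, so a difference of 1 stands for a 2-fold change, and their precision is bounded by how few arrays there are. Chd7 itself was at 6.17, 7.54 and 5.32 on control arrays 1 to 3 and at 5.48, 6.5 and 5.91 on Chd7f/f arrays 1 to 3; where the probes lie relative to the floxed part is not stated, so these values do not check the deletion. Kit, the gene behind the sort, lay between 11.7 and 12.5. Control replicate 2 had the Xist level of a female sample, 10.1 against at most 3.88 elsewhere. By Xist no Chd7f/f array read as female, so sex was not balanced between the genotypes, and it was not in the model. Chd7f/f replicate 1 stood apart in genes of cell division and control replicate 1 in the mean of erythroid genes, both given with the values they touch. The means of the monocyte and neutrophil markers were highest on Chd7f/f replicate 3, with mean deviations of 0.77 and 0.71. Not every marker was highest there: Mpo, Elane, Prtn3, Ctsg, Cx3cr1 and C1qc peaked on arrays numbered 1, and Cd68 and Cd14 on control replicate 2. Markers of B cells, T and NK cells, platelets and stroma had mean deviations between -0.52 and 0.39 on all arrays. Single genes in these lists moved more. Gp9 ran from 6.405 to 10.81 and Pdgfrb from 5.24 to 8.99, both highest on control replicate 1, where Itgb3 was lowest.

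Among the D cyclins, Ccnd2 and Ccnd3 were read far above the array medians of 4.72 to 4.84, and Ccnd1 close to them. Ccnd2 was at 11.87, 11.06 and 11.21 in the control and at 10.71, 11.06 and 11.16 in Chd7f/f leukemias. Control replicate 1 was high, Chd7f/f replicate 1 was low and the genotypes overlapped. Ccnd3 was at 9.83, 10.46 and 10.73 in the control and at 10.16, 10.47 and 10.38 in Chd7f/f leukemias. Here control replicate 1 was the lowest array, the reverse of Ccnd2. Ccnd1, the D cyclin best known from epithelial and lymphoid tumours, was at 5.07, 5.31 and 5.11 in the control and at 5.03, 5.13 and 5.11 in Chd7f/f leukemias. All 6 values lay under 5.78, the level 1 log2 above the mean array median, so this probe set may have read background, and its range of 0.29 was wider than that of 12.4% of tested genes. Probe sets differ in how strongly they bind their targets, so readings of different genes do not rank their transcripts, and whether cyclin D2 or D3 messages were more abundant cannot be read from them.

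Both kinase genes were read well above the array medians, and each had 1 array apart from the rest. Cdk4 was at 10.23, 10.13 and 10.40 in the control and at 9.04, 10.61 and 10.36 in Chd7f/f leukemias. A single array, Chd7f/f replicate 1, lay more than 1 log2 below the other 5. Cdk6, whose protein also acts as a transcriptional cofactor in blood cells, was at 12.51, 11.09 and 11.06 in the control and at 11.20, 11.62 and 11.33 in Chd7f/f leukemias. Its high array was control replicate 1, and the remaining control values lay below all Chd7f/f values. In bulk samples fewer cells of a type and less RNA per cell cannot be told apart.

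Of the CIP/KIP genes, Cdkn1a varied with individual leukemias and Cdkn1b was nearly level on 5 arrays. Cdkn1a, the p21 gene and a classic p53 target, was at 9.60, 10.90 and 10.82 in the control and at 9.75, 10.62 and 10.60 in Chd7f/f leukemias. In both genotypes replicate 1 was the lowest array, and the groups overlapped. Cdkn1b, the p27 gene, was at 8.90, 9.03 and 9.01 in the control and at 9.70, 8.91 and 8.97 in Chd7f/f leukemias. Chd7f/f replicate 1, low in Cdk4, was the high array.

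The INK4 genes followed no common order of arrays. Cdkn2a was at 7.20, 7.35 and 6.72 in the control and at 6.65, 6.98 and 6.88 in Chd7f/f leukemias. The gene encodes both p16Ink4a, a CDK4 and CDK6 inhibitor, and p19Arf, which protects p53, from separate first exons, and its 1 probe set value cannot tell them apart. Cdkn2c, the p18Ink4c gene, was at 8.18, 7.83 and 8.58 in the control and at 8.32, 7.89 and 8.41 in Chd7f/f leukemias. Replicate 2 was the low array in both genotypes. Cdkn2d, the p19Ink4d gene, was at 7.82, 8.83 and 9.01 in the control and at 8.61, 8.80 and 8.54 in Chd7f/f leukemias. Control replicate 1 lay below the other 5 arrays. As with the cyclins, these readings do not say which inhibitor message was most abundant; all 5 inhibitor genes were read above 5.78 on all arrays.

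**Figure D1:**
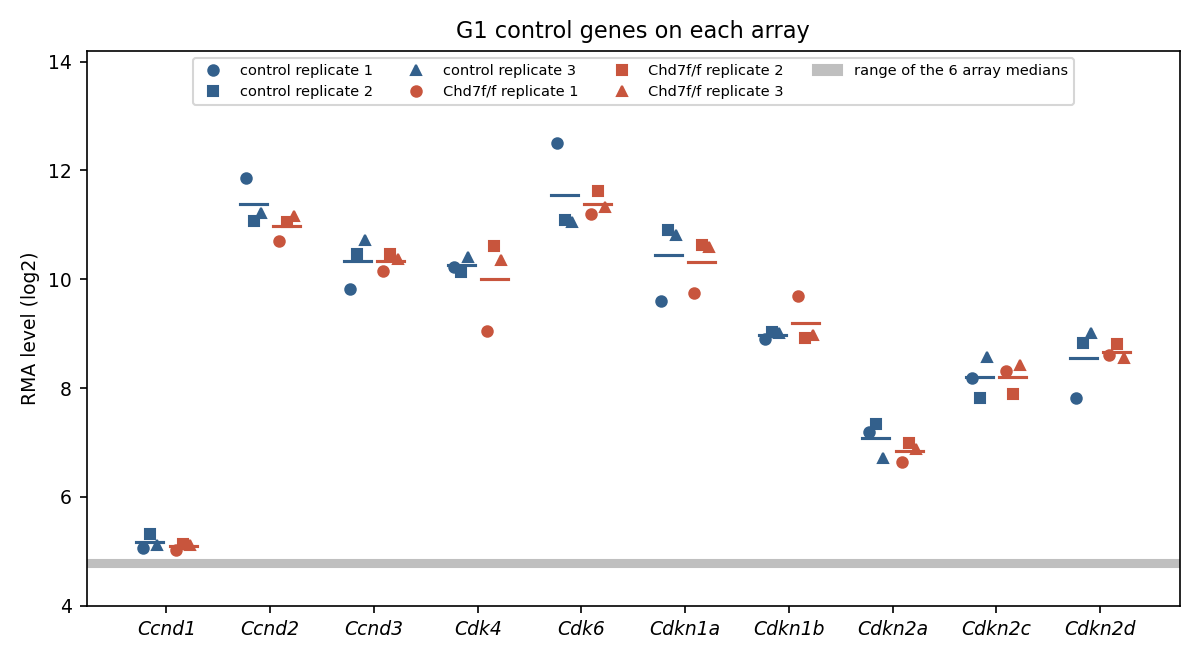
RMA levels on the log2 scale of the 10 genes on each of 6 arrays, with circles, squares and triangles for replicates 1, 2 and 3, horizontal bars for the mean of 3 arrays and a grey band for the array medians. Ccnd1 lies near the grey band, and circles stand apart for Ccnd2, Cdk4, Cdk6, Cdkn1a, Cdkn1b and Cdkn2d.

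Most members had a wider range between leukemias than the median tested gene. Over the 6 arrays Cdk4 had a range of 1.57, Cdk6 1.46, Cdkn1a 1.30, Cdkn2d 1.19 and Ccnd2 1.15, and these 5 lay above the upper quartile of tested genes, 0.93. All members but Ccnd1, 9 of 10, lay above the median range of 0.57. The tested genes reach down to a mean of 4.13, under the array medians, and ranges were not compared at like levels. Of the 20 highest and lowest readings of the 10 genes, 11 fell on the arrays numbered 1, with 6 on control replicate 1 and 5 on Chd7f/f replicate 1, and 0 fell on Chd7f/f replicate 3. The same count was not made over all tested genes, so it cannot be read as a trait of the members. Array weights estimated over all tested genes were lowest on control replicate 1, 0.61, and Chd7f/f replicate 1, 0.42. They were highest on Chd7f/f replicate 3, 2.59.

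Chd7f/f replicate 1 combined low Cdk4 with high Cdkn1b. Measured from each gene's mean over the 6 arrays, Cdk4 was at -1.08 there, Cdkn1a at -0.64, Ccnd2 at -0.47 and Cdkn2a at -0.32, while Cdkn1b was at 0.61. Cdkn1b minus Cdk4 was 0.66 on this array and between -1.70 and -1.10 on the other 5. The size of such a difference depends on the probes, so only its change from array to array is described. The same array had the lowest mean of the 41 tested DNA replication genes, -1.23, where the others lay between -0.12 and 0.50, and of the 39 mitosis genes, -1.51, against -0.11 to 0.57. It also had the highest mean of the stem and progenitor markers, 0.70 over 6 tested genes of 7 listed, where control arrays ran from -0.38 to 0.015 and the other Chd7f/f arrays were at -0.36 and 0.070. The erythroid markers had their lowest mean there, -1.09 over 9 genes, though not Car1, which was at 12.21 there and at 11.09 on control replicate 1. Cd34, a marker of immature cells and part of the stem and progenitor list, was at 9.47 there and between 5.61 and 7.64 elsewhere. It moved most in that list. Kit and Gata2 were also highest there, while Myb, Meis1 and Flt3 were highest on other arrays. The mast cell and basophil markers, Gata2 among them, had their highest mean there too, 0.46. Of these, Hdc and Cd200r3 were highest on Chd7f/f replicate 2. The part of cell type makeup in the Cdk4 and Cdkn1b values was not tested.

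Control replicate 1 had another pattern, with Ccnd2 and Cdk6 high and Ccnd3, Cdkn1a and Cdkn2d low. The deviations there were 0.69 for Ccnd2, 1.04 for Cdk6, -0.51 for Ccnd3, -0.78 for Cdkn1a and -0.79 for Cdkn2d. Ccnd2 minus Ccnd3 was 2.04 on this array and between 0.48 and 0.78 on the other 5. Cdk6 minus Cdk4 was 2.28, and 2.16 on Chd7f/f replicate 1, where low Cdk4 rather than high Cdk6 made the difference. On the remaining 4 arrays it ran from 0.65 to 1.0. Erythroid markers had a mean of 1.35 on control replicate 1, against -0.35 and -0.11 on the other control arrays and -1.09 to 0.40 on Chd7f/f arrays. The anion exchanger gene Slc4a1 was at 11.5 there and at most 9.14 elsewhere, and the transferrin receptor gene Tfrc at 11.1 and at most 9.46. Not all erythroid markers went this way. Car1 was lowest there, at 11.09 against 12 to 12.21 elsewhere, and Klf1 and Epor were highest on other arrays. Of the 15 erythroid genes listed, 9 had a probe set of their own, and all 9 were tested. Mast cell and basophil markers had their lowest mean there, -0.74 over 9 tested genes of 12 listed, against 0.075 and 0.16 on the other control arrays and -0.068 to 0.46 on Chd7f/f arrays. Ms4a2, Fcer1a, Hdc, Cd200r3 and Il4 were lowest on control replicate 1, while Cpa3, Gata2, Cma1 and Mcpt8 were lowest on other arrays. The part of these markers in the values of the G1 genes was not tested.

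**Figure D2:**
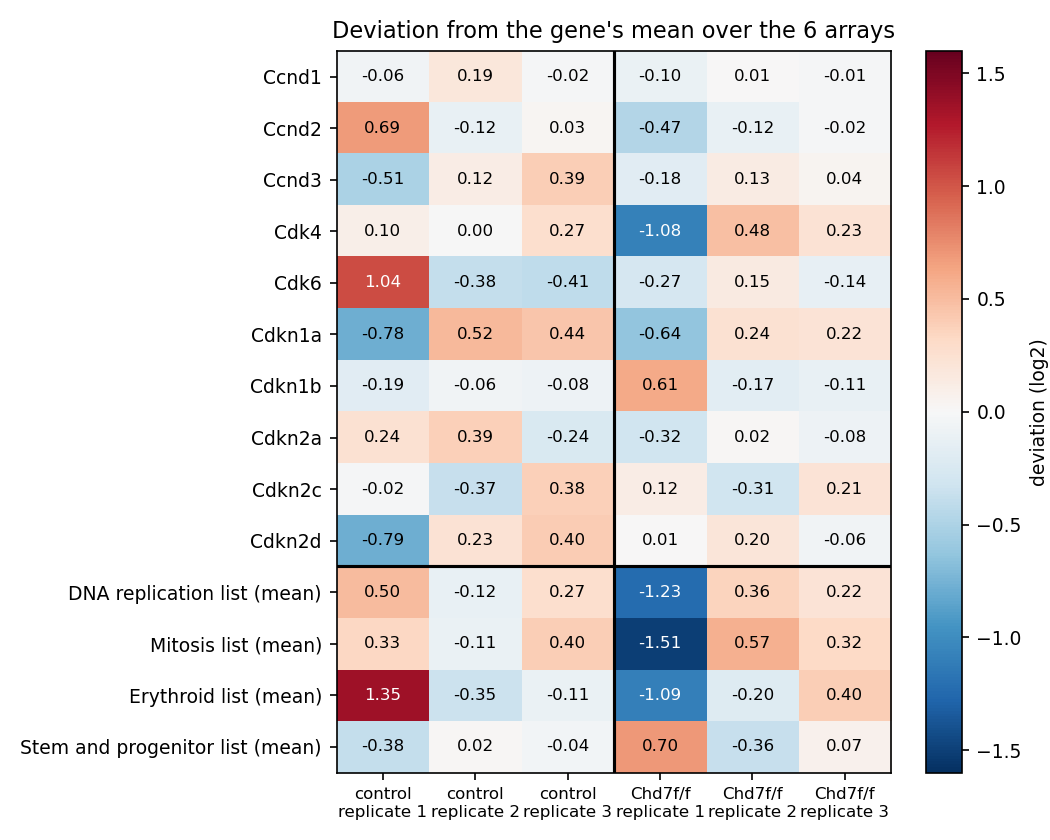
Deviation on the log2 scale from each gene's mean over the 6 arrays (rows above the line) and the mean deviation of 4 gene lists (rows under it), 1 column per array. Cdk4 and both division lists are lowest on Chd7f/f replicate 1, where Cdkn1b is highest, and Cdk6, Ccnd2 and the erythroid list are highest on control replicate 1.

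**Figure D3:**
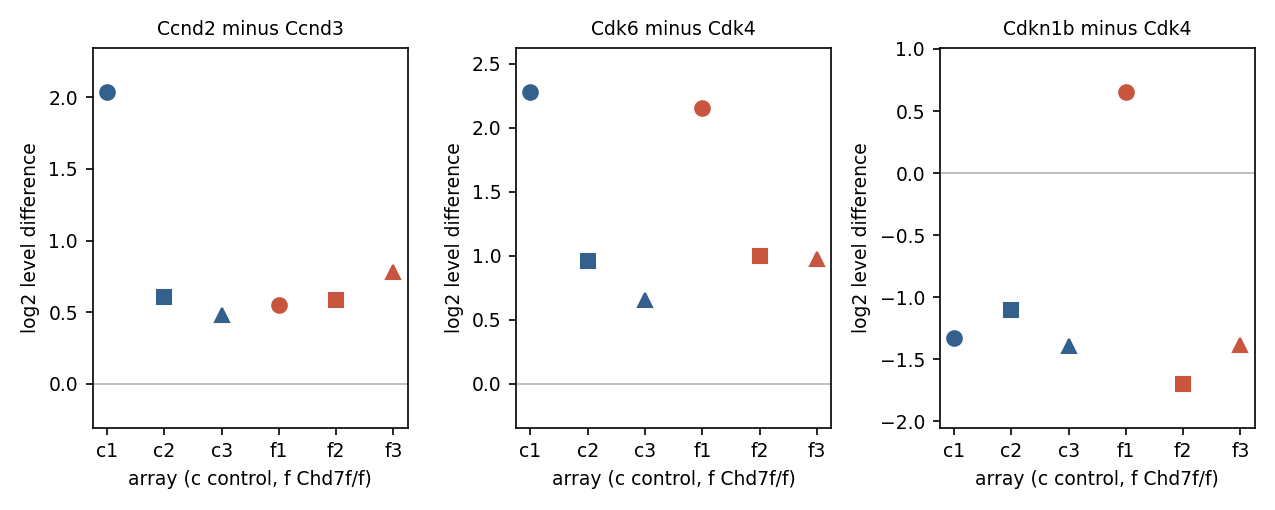
Level of 1 gene minus another on the log2 scale on each array, with c1 to c3 for control and f1 to f3 for Chd7f/f replicates. Ccnd2 minus Ccnd3 is 2.04 on c1, Cdk6 minus Cdk4 is high on c1 and f1, and Cdkn1b minus Cdk4 is above 0 on f1 alone.

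For the 3 members with the widest range, the genes whose values followed them most closely over the 6 arrays were sought among all tested genes with a standard symbol. Closest to Cdk4 were Espl1, the separase that splits sister chromatids, Tpx2, a spindle assembly factor, and Rangap1, the GTPase activator of RAN, with Pearson's r of 0.9997, 0.9985 and 0.9984. Without Chd7f/f replicates 1 and 2, the arrays farthest from the median of Cdk4, r was 0.99, 0.98 and 0.96 over 4 arrays. Closest to Cdk6 were the copper transporter gene Slc31a1, the ankyrin gene Ank2 and Chrdl2, with r of 0.9929, 0.9924 and 0.9903, and of 0.95, 0.87 and 0.84 without control replicate 1 and Chd7f/f replicate 2. Closest to Cdkn1a were Mrps23, of the mitochondrial ribosome, Srebf2, the regulator of cholesterol synthesis, and Uqcc3, with r of 0.9966, 0.9965 and 0.9914, and of 0.96, 0.93 and 0.77 without both arrays numbered 1. These are the best of all genes searched over few arrays, so high values arise by the search itself and are given as a description.

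No member differed between the genotypes beyond the spread of the leukemias. Of the 10 genes, 3 were higher and 7 lower in Chd7f/f leukemias, where 43.7% of the 15526 tested genes were higher. Values of the genotypes overlapped for all 10, while 6.81% of all tested genes had no overlap. At an unadjusted p under 0.05, 0 of 10 members were called, against a background of 1.84%, and after Benjamini-Hochberg adjustment 0 of 10 and 0% of all genes (limma, adjusted p = 0.9998 for each member). The median difference of the members was -0.095, and that of all tested genes -0.027. With 3 arrays on each side the smallest p of an exact permutation test (two-sided) is 0.1.

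Ccnd2 had the largest difference, with a control mean of 11.38 ± 0.43 and a Chd7f/f mean of 10.98 ± 0.23 (SD, n = 3 arrays per genotype). The difference was -0.40 (SE 0.25), with a 95% interval of -1.0 to 0.19 on the log2 scale. Without control replicate 1 it was -0.16, and without both arrays numbered 1, a fit chosen after the data were seen, -0.028. With array weights it was -0.20. Ccnd1 differed by -0.072 (interval -0.36 to 0.22) and Ccnd3 by -0.00054 (-0.60 to 0.60). The Chd7f/f values of Ccnd3 lay inside the range of its control values.

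The kinase genes had the widest intervals beside Cdkn1a. Cdk4 had a control mean of 10.25 ± 0.14 and a Chd7f/f mean of 10.004 ± 0.84 (SD, n = 3 arrays per genotype), which differ by -0.25 (SE 0.41, interval -1.24 to 0.74). Without Chd7f/f replicate 1 it turned to 0.23, and with array weights it was -0.018. Cdk6 had means of 11.55 ± 0.83 and 11.38 ± 0.21 (SD, n = 3 arrays per genotype), which differ by -0.17 (SE 0.41, interval -1.16 to 0.82). Without control replicate 1 it turned to 0.31, and without both arrays numbered 1 to 0.40. In each kinase gene 1 array set the sign, a different array for each.

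The p27 gene Cdkn1b averaged 8.98 ± 0.069 in control and 9.20 ± 0.44 in Chd7f/f samples (SD, n = 3 arrays per genotype), which differ by 0.22 (SE 0.23, interval -0.33 to 0.77). Without Chd7f/f replicate 1 it turned to -0.036, and with array weights it was 0.041. The p21 gene Cdkn1a differed by -0.12 (interval -1.14 to 0.91). It was at -0.54 without control replicate 1 and turned to 0.17 without Chd7f/f replicate 1, to 0.11 without control replicate 2 and to 0.074 without control replicate 3.

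Cdkn2a averaged 7.09 ± 0.33 in control and 6.84 ± 0.17 in Chd7f/f samples (SD, n = 3 arrays per genotype), which differ by -0.25 (SE 0.20, interval -0.73 to 0.23). It ran from -0.44 to -0.12 with each array left out in turn and was -0.099 with array weights. At -0.44, without control replicate 3, its unadjusted limma p was 0.0426, which was the 1 value under 0.05 among 160 over members and alternatives, where the smallest adjusted p was 0.989 and the largest 1. Cdkn2c differed by 0.013 (interval -0.57 to 0.59) and Cdkn2d by 0.10 (-0.67 to 0.88). Cdkn2d turned to -0.27 without control replicate 1, while Cdkn2c changed sign without any 1 of control replicate 2 and Chd7f/f replicates 1 and 3, lying between -0.17 and -0.043. Of the 16 alternatives, 6 leave a member's difference as it is. Each member has 1 probe set, and the replicate block is balanced. The 2 other filters and the trended robust prior change which genes are tested or the error estimate, not the difference. In the 10 that can change it, Ccnd2 and Cdkn2a were the 2 members that kept their sign.

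**Figure D4:**
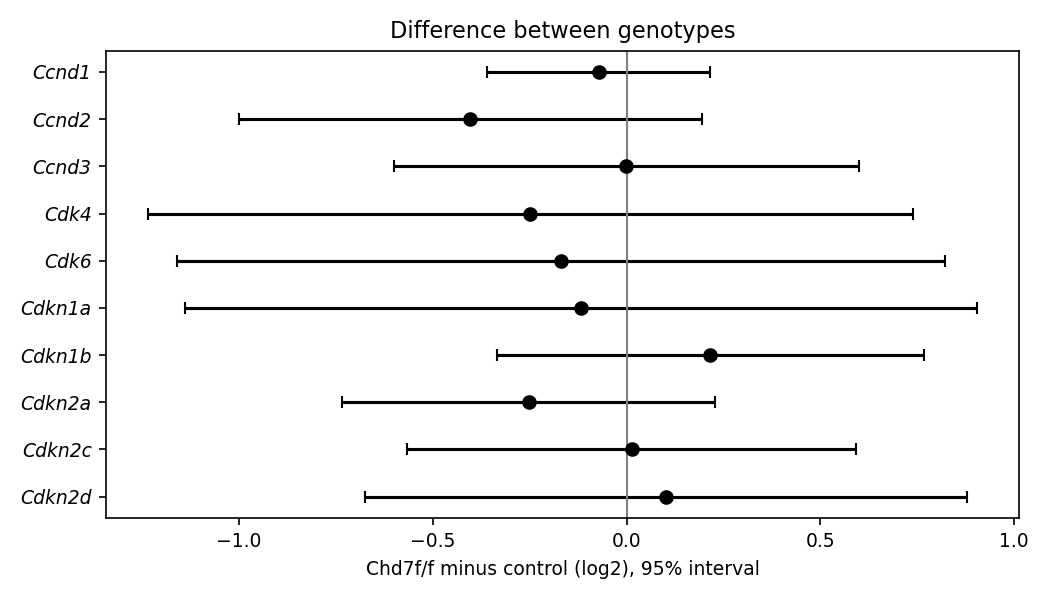
Chd7f/f minus control on the log2 scale for each gene, with points for the limma difference of 3 against 3 arrays and bars for its unadjusted 95% interval. All 10 intervals include 0, the narrowest that of Ccnd1 (-0.36 to 0.22) and the widest that of Cdkn1a (-1.14 to 0.91).

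**Figure D5:**
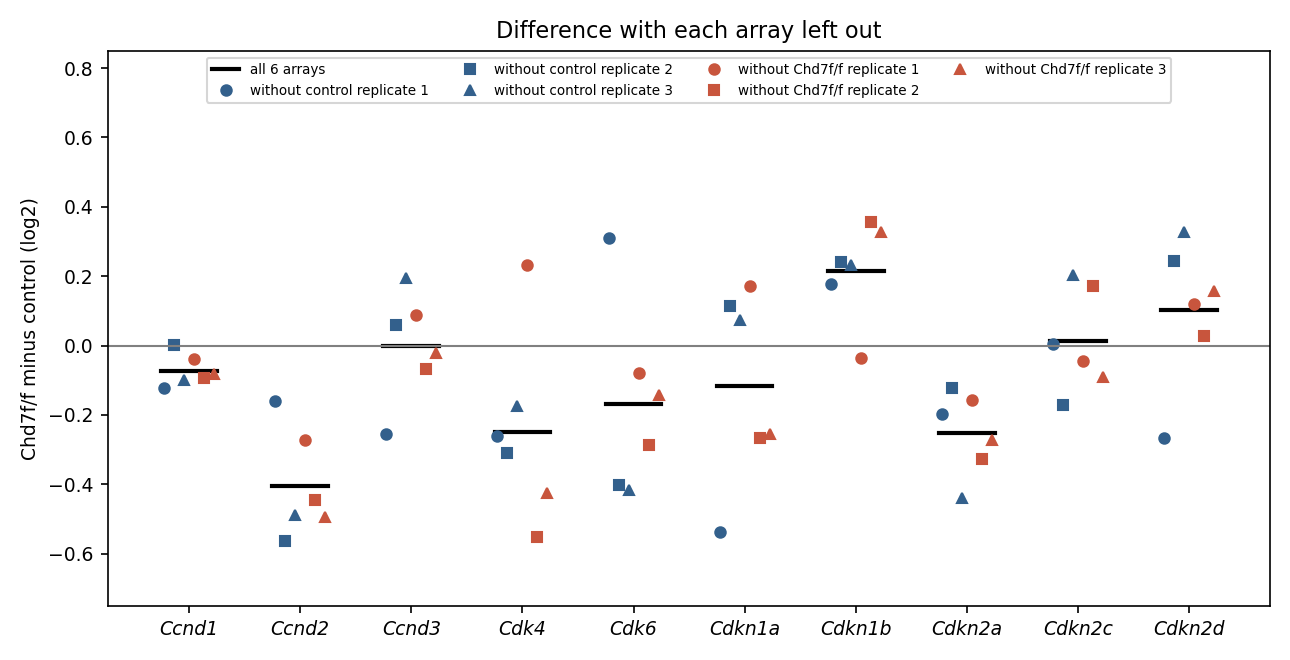
The same difference with all 6 arrays (black bars) and with each array left out in turn (symbols by array). Ccnd2 and Cdkn2a stay below 0, while Cdk4 turns to 0.23 without Chd7f/f replicate 1 and Cdk6 to 0.31 without control replicate 1.

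None of the genes listed beside and after the D cyclins passed the test, and counts of lower genes are to be read against the 56.3% of all tested genes that were lower in Chd7f/f leukemias. All 6 tested genes of cyclin E, cyclin A and CDK2 were lower, with a median of -0.22 against -0.027 for all tested genes, and 0 of 6 had an unadjusted p under 0.05 (background 1.84%). Ccne1, the cyclin E1 gene of S phase entry, was at 7.17, 7.05 and 6.95 in the control and at 5.34, 6.80 and 7.05 in Chd7f/f leukemias. Chd7f/f replicate 1 was the low array, as for Cdk4. Without it the mean difference of this list went from -0.27 to 0.047. Ccna2 differed by -0.47, Cdc25a, the phosphatase that activates CDK2, by -0.27 and Cdk2 by -0.17.

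Of 19 genes of the RB family, E2F factors and the DREAM complex 17 were lower and 2 higher, with a median of -0.28 and 0 genes at an unadjusted p under 0.05. Tfdp2, a DP partner of E2F factors, had the largest difference of those named, -1.32 (SE 0.81). It was at 9.01, 5.79 and 6.60 in the control and at 6.13, 5.32 and 6.0 in Chd7f/f leukemias. Control replicate 1, the array with high Cdk6 and a high erythroid mean, was far above the rest, and the genotypes overlapped. The repressor E2f8 differed by -0.54, E2f3 by -0.32 and E2f5 by -0.19. The mean difference of the list was -0.28, between -0.46 and -0.087 with each array left out, and 0.061 without both arrays numbered 1. Of the 41 tested DNA replication genes 38 were lower and 3 higher, with Cdc7 at -0.72, Pold1 at -0.63, Pole2 at -0.57 and Dbf4, the activating subunit of CDC7, at -0.24, and all 39 mitosis genes were lower. Without Chd7f/f replicate 1 the mean differences of these lists went from -0.44 to 0.070 and from -0.41 to 0.24.

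None of the other inhibitors and genes of the turnover machinery passed the test. Cdkn1c, the p57 gene, differed by -0.26, Cdkn2b, the p15Ink4b gene next to Cdkn2a, by -0.095 and Cdkn3, a CDK phosphatase gene, by -0.47, so that 3 of 3 tested genes were lower (median -0.26). Cdkn1c was at 5.83 on control replicate 1 and between 4.75 and 5.06 elsewhere, where it may have read background. Cdkn3 was at 6.13 on Chd7f/f replicate 1 and between 7.40 and 8.32 elsewhere. Of 16 genes for the breakdown of cyclins and inhibitors 6 were higher and 10 lower (median -0.098), among them Dtl at -0.75, Ambra1, the receptor by which D cyclins are ubiquitinated, at -0.26, Skp2, which targets p27, at -0.22 and Fbxo31 at -0.13. Of 10 genes of CDK activation and further kinases 4 were higher and 6 lower (median -0.084), with Cdk5r1 at -0.26, the cyclin H gene Ccnh at -0.23, Ccnc at 0.20 and Cdk8 at 0.14. Cdk5r1 had no overlap (6.81% of all tested genes had none), and at 4.66 to 5.13 it may have read background. Dtl was at 7.83 on Chd7f/f replicate 1 and between 9.17 and 10.34 elsewhere. Without that array the mean difference of the other inhibitors went from -0.28 to -0.045, that of the turnover genes from -0.10 to 0.0036 and that of the CDK activation genes from -0.083 to 0.032. In these 3 lists 0 genes had an unadjusted p under 0.05.

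Regulators of the Cdkn2a and Cdkn1b genes were evenly split, with 10 higher and 11 lower of 21 (median -0.011). The Polycomb genes Cbx7 and Ring1 differed by -0.43 and, with no overlap, -0.28, Bmi1, whose protein represses Cdkn2a, by 0.22, and Zbtb7a by 0.17. Of 17 tested genes of p53 and its targets, the pathway that links p19Arf to p21, 6 were higher and 11 lower (median -0.13). Pmaip1, the NOXA gene, was at 7.81, 6.25 and 5.86 in the control and at 5.42, 5.76 and 6.0 in Chd7f/f leukemias, a difference of -0.91 (SE 0.50). Control replicate 1, lowest in Cdkn1a, was the highest array of Pmaip1. Bbc3, the PUMA gene, was 0.25 higher with no overlap, 1 of 17 genes in this list as Ring1 was 1 of 21 in the other, against 6.81% of all tested genes. Btg2 was at -0.25 and Mdm2 at -0.14. In both lists 0 genes had an unadjusted p under 0.05 (limma, adjusted p = 0.9998 for each gene named here).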

How the data were processed

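Total RNA of 6 sorted samples was hybridised to Affymetrix whole-transcript arrays. The authors deposited log2 values, 1 for each probe set on each array; the submitters' processing notes name Affymetrix Expression Console and RMA, and their versions are not stated there. RMA removes background and gives all arrays like distributions, which hides any difference in total signal. The 41345 probe sets lie between 1.78 and 13.5. Names came from the annotation of the platform and were brought up to date through Entrez identifiers of RefSeq GRCm38.p6: 23521 probe sets name 1 gene, 1814 several and 16010 none. Each gene kept its highest-mean probe set, and genes under the 30th percentile of these means, 4.13, were left out, which kept 15526 genes and all 10 members. Genotypes follow the titles. The test was limma 3.58.1 (R 4.3.3) with lmFit, eBayes and a constant prior, 2 groups and nothing else in the model, adjusted by Benjamini-Hochberg across the 15526 genes.

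Members and lists were chosen with earlier results of these data known. All members are named; from each pathway list come up to 4 genes of smallest p, and Slc4a1, Tfrc and Cd34, like the level differences between pairs of members, were chosen after their values were seen. On data simulated for this comparison with 15526 genes, limma found 39.4% of genes shifted by 1 log2, 83.0% of those shifted by 2 and 93.6% of those shifted by 3. The simulated noise was independent between genes and arrays, with no array set apart. There 4.98% of unchanged genes had an unadjusted limma p under 0.05, against 1.84% of tested genes in the data. The shares found may therefore not hold for these arrays. Alternatives were a second quantile normalization, median centring, 2 other filters (none, 50th percentile), 2 other ways to treat several probe sets, a trended robust prior, array weights, a replicate block, other thresholds and each array left out. Leaving out both arrays numbered 1 was chosen after seeing the data. Plots used matplotlib 3.10.9.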

Additional observations from a re-analysis of the deposited data

How the results depend on the processing

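Of the 16 alternatives, 6 cannot change a member's difference, which leaves 100 differences over 10 members and 10 alternatives: 76 kept the sign of the reported value and 24 turned. None of the members passed an adjusted p of 0.05 in any of the 16 (limma, 0 at an unadjusted p under 0.05 in the reported fit). Ccnd3 turned to 0.023 with a second quantile normalization and to 0.0075 with arrays centred on the median. Array weights, which ran from 0.42 for Chd7f/f replicate 1 to 2.59 for Chd7f/f replicate 3, turned Cdk6 to 0.053, Cdkn2c to -0.021 and Cdkn2d to -0.13, and brought Ccnd2 to -0.20, Cdk4 to -0.018, Cdkn2a to -0.099 and Cdkn1b to 0.041. Without both arrays numbered 1, Cdk4 was at 0.22, Cdk6 at 0.40, Cdkn1b at -0.075, Cdkn2c at -0.051 and Cdkn2d at -0.25. With each array left out in turn, Ccnd1 ran from -0.12 to 0.0020, Ccnd2 from -0.56 to -0.16, Ccnd3 from -0.26 to 0.20, Cdk4 from -0.55 to 0.23, Cdk6 from -0.42 to 0.31, Cdkn1a from -0.54 to 0.17, Cdkn1b from -0.036 to 0.36, Cdkn2a from -0.44 to -0.12, Cdkn2c from -0.17 to 0.20 and Cdkn2d from -0.27 to 0.33. The number of members at an unadjusted p under 0.05 was then 0 to 1.

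Over all tested genes 286 had an unadjusted p under 0.05, with 530 without a filter, 159 with a filter at the 50th percentile, 571 with array weights and 270 to 477 with each array left out, the last without control replicate 2. With a fold of at least 1.5 the count was 121, with 186 under array weights, 128 to 283 with each array left out, and 16 at an unadjusted p under 0.01 and a fold of 2. Genes without overlap numbered 1058, with 1717 without a filter and 589 with the filter at the 50th percentile, where more or fewer genes were tested. With the replicate number as a block 332 genes had an unadjusted p under 0.05 and 0 members did. Deviations of same-numbered arrays correlated at 0.027, -0.025 and 0.034 over genes, so the numbers were not taken to pair the samples. The number of arrays and a probe set near background limit what can be said of Ccnd1.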
